A study of Mus musculus with 24 samples.

Results

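Oxidative phosphorylation is carried out by 5 protein complexes of the inner mitochondrial membrane, and this report follows the RNA of their subunits in mouse prostate organoids and prostate tissue. Members were taken by symbol: the nuclear subunits of complex I (symbols that start with Ndufa, Ndufb, Ndufc, Ndufs or Ndufv), complex II (Sdha, Sdhb, Sdhc and Sdhd), complex III (Uqcr), complex IV (Cox4i, Cox5, Cox6, Cox7 or Cox8) and complex V (Atp5), together with the protein-coding genes of the mitochondrial genome. This gave 107 members of 21718 protein-coding genes, 94 of them nuclear and 13 mitochondrial. The nuclear members were 38 genes of complex I, 4 of complex II, 8 of complex III, 18 of complex IV and 18 of complex V. The other 8 nuclear members, Ndufaf1 to Ndufaf8, also match the first rule but are assembly factors of complex I and not subunits, and they are given apart.

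The series holds bulk RNA sequencing of 24 libraries. Organoids, which are small 3-dimensional epithelial cultures, were grown in Matrigel from anterior prostate lobes of mice aged 3 months, in a medium with EGF, Noggin, R-spondin, A83-01, Y27632 and B27. Cultures labelled as Brca1 knockout (KO), heterozygous (HET) or wild type (WT) were kept without or with dihydrotestosterone (DHT), a potent androgen, with 3 libraries in each of the 6 groups. RNA from anterior lobes of KO, HET and WT mice was also sequenced without culture, with 2 libraries for each genotype. Which exons of Brca1 were deleted, what drove the deletion and how many mice stand behind a culture are not given in the sources used here. Nothing says that libraries of 1 group came from separate mice or cultures, so each p-value measures the spread between these libraries, which may be technical.

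Brca1, a gene of homologous recombination repair, was measured first because the genotype labels rest on it. Without DHT it averaged 11.9 ± 1.53 CPM (read counts scaled to the size of each library) in KO, 19.4 ± 1.56 CPM in HET and 13.5 ± 1.59 CPM in WT organoids (SD, n = 3 each). With DHT the averages were 11.4 ± 1.18 CPM in KO, 17.6 ± 1.9 CPM in HET and 14.3 ± 0.574 CPM in WT organoids (SD, n = 3 each). The libraries labelled HET therefore held more Brca1 RNA than those labelled WT in both media, and those labelled KO were not depleted of it. A deletion of a few exons need not lower the reads of the rest of the gene, so these values do not check the labels, and KO, HET and WT stand below for the libraries that carry those labels. Libraries held 11965815 to 58445041 estimated reads. The organoid libraries WT with DHT replicate 1, KO without DHT replicate 1 and HET without DHT replicate 1 were the 3 smallest, with 11965815, 25233980 and 29409564 reads. They also had reads on 45309, 48521 and 48356 transcripts, against 52847 to 62978 in each of the others, and in the WT one Lars2 alone took 28.1% of the reads. Tissue libraries WT replicate 2 and HET replicate 1 held 152671 and 36349 CPM over the seminal vesicle secretion genes Svs2, Svs4 and Svs5, against 2.15 to 8.45 CPM in the other 4 tissue libraries.

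Complex I (NADH dehydrogenase) and complex II (succinate dehydrogenase) pass electrons to ubiquinone, complex III passes them on to cytochrome c, and complex IV gives them to oxygen. Complexes I, III and IV pump protons while doing so, and complex V, the ATP synthase, makes ATP as the protons flow back. Complex II is encoded by nuclear genes alone, whereas the other complexes join nuclear subunits with subunits from the mitochondrial genome, which is transcribed inside the organelle as long RNAs that are then processed. Prostate epithelium is known for citrate secretion, which ties its metabolism closely to the mitochondria.

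The mitochondrial members were far more abundant per length than the nuclear ones. In TPM, a level scaled to gene length, mt-Co1, the catalytic subunit of complex IV, averaged 17573 over the 24 libraries, mt-Atp8 of complex V averaged 5989, mt-Nd1 of complex I averaged 5429 and mt-Cytb, the mitochondrial subunit of complex III, averaged 5204. mt-Nd3 of complex I was listed lowest with 101 TPM, but with the near-identical copy described below it held 1394 TPM, and mt-Nd6 was then lowest with 1252 TPM. Among nuclear members the highest level in complex III was that of Uqcrh, the hinge subunit, with 811 TPM, and the highest in complex IV was that of Cox6b1 with 787 TPM, or Cox7c with 1320 TPM when the copies of each member are added. Atp5b, the catalytic beta subunit of the ATP synthase, led complex V with 776 TPM, Ndufa4 led the Nduf genes with 489 TPM and Sdhc, a membrane anchor of complex II, led that complex with 159 TPM. The lowest subunit was Uqcrfs1 in complex III with 118 TPM and Sdhb in complex II with 78.1 TPM. In complex I it was Ndufb4 with 32.9 TPM as listed, or Ndufs1 with 41.5 TPM when copies are added, since Ndufb4 shares its sequence with Ndufb4c and then held 189 TPM. Complex V ended with a second gene entry of the symbol Atp5o at 0.84 TPM and complex IV with the testis isoform Cox8c at 0 TPM. The assembly factors lay between 4.90 TPM for Ndufaf6 and 21.2 TPM for Ndufaf8, below every subunit of complexes I, II and III. The symbol Ndufa4 puts this gene with complex I, but its protein is now counted among the subunits of complex IV.

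Several members have near-identical copies elsewhere in the genome, and the deposited estimates divide reads between a member and its copies. By a search of the annotated transcripts, 9 mitochondrial members had 11 such copies and 25 nuclear members had 47. The stretch on chromosome 1 that carries copies of the mitochondrial genes decides most of this. Gm10925, at chr1:24613974-24614651 in GRCm38, matched the first 678 bases of mt-Atp6 with 0 mismatches, and Gm28661 at chr1:24614885-24615565 matched 681 bases of mt-Co2 with 0 mismatches. Gm28437 at chr1:24613189-24613971 likewise matched 783 bases of mt-Co3 with 0 mismatches. Reads from such a pair cannot be told apart by their sequence. For mt-Nd3 (chrM:9459-9806) and Gm28438 (chr1:24612775-24613119) a single base differed over 345 bases. It is T3C, counted from the first base of the gene. The 17-base windows below are shown because no other base separates the pair within that stretch. The capital marks the differing base. 
mt-Nd3: atTaacctgtacactgt
Gm28438: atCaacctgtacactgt

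The estimates divided these pairs in another way in a pair of libraries than in all the rest. Of the reads of mt-Co2 and Gm28661 together, 96.8% were given to the mitochondrial gene in KO without DHT replicate 1 and 99.7% in HET without DHT replicate 1, against 22.0% to 43.1% in the other 22 libraries. For mt-Atp6 and Gm10925 the shares were 92.4% and 95.6% in these libraries, against 16.9% to 49.5% elsewhere. For mt-Co3 and Gm28437 they were 98.3% and 99.0%, against 15.1% to 64.9%. These libraries did not overlap with the others for any of the 3 pairs. For mt-Nd4 and Gm28439 the order was turned round, with 94.6% and 90.4% in these libraries and 100% in each of the other 22, and for mt-Nd3 and Gm28438 the shares of 10.5% and 11.5% lay at the top of the range elsewhere, 2.67% to 11.5%. The value of a single mitochondrial gene is therefore given below with the reads of its copies added wherever this changes what it shows.

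**Figure D1:**
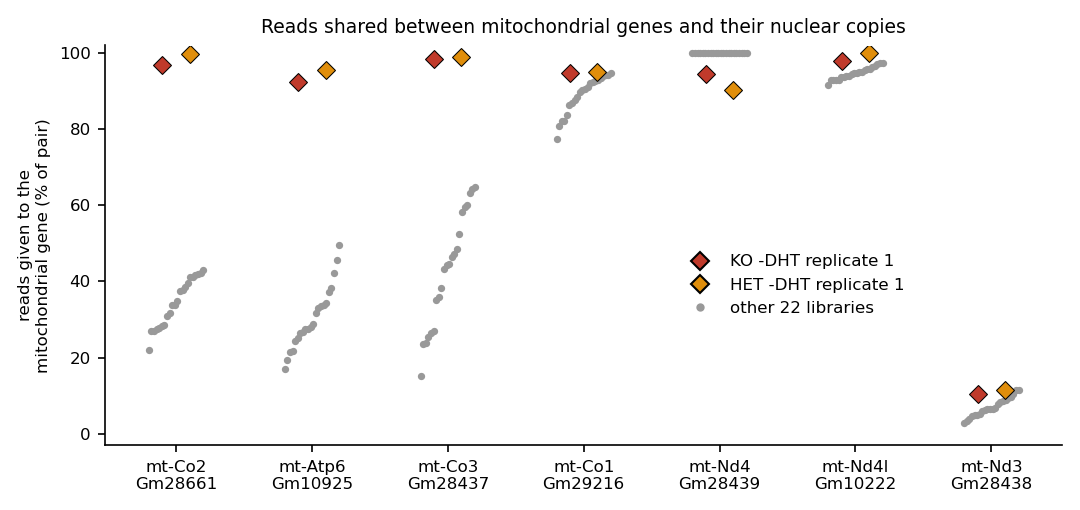
Share of the reads of a pair (percent, vertical axis) that the deposited estimates gave to the mitochondrial gene, for 7 pairs of a mitochondrial gene and its nuclear copy (horizontal axis). Diamonds are KO and HET organoids without DHT, replicate 1 of each, and grey points are the other 22 libraries in rising order; for mt-Co2, mt-Atp6 and mt-Co3 the diamonds lie at 92.4% or above while no grey point exceeds 64.9%.

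With copies added, the mitochondrial members took 2.16% to 10.4% of all reads assigned to genes. In organoids without DHT the shares were 10.4%, 5.26% and 3.35% in KO, 9.75%, 5.70% and 3.09% in HET and 3.77%, 3.86% and 6.18% in WT. With DHT they were 5.98%, 5.14% and 3.99% in KO, 3.68%, 3.04% and 5.71% in HET and 3.48%, 2.90% and 3.52% in WT organoids. Replicate 1 of KO and of HET without DHT had the highest shares of all. Among the remaining organoid libraries WT with DHT lay below KO with DHT and below WT without DHT, and all other pairs of groups overlapped. In WT with DHT replicate 1 the abundant Lars2 reads lower the share of all other genes. The place of that library, and with it this separation, therefore depends on the reads over which the share is taken. Tissue held 4.14% and 5.97% in KO, 3.58% and 5.91% in HET and 7.22% and 2.16% in WT, so that the highest and the lowest tissue share belonged to the same genotype.

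In bulk RNA a lower share from fewer cells of a type and from less RNA per cell cannot be told apart. The nuclear members together took far less, 0.478% to 1.28% of reads. In organoids without DHT their share was 0.591% in KO replicate 1 and 0.612% in HET replicate 1, the 2 libraries richest in mitochondrial reads, and 0.708% to 0.843% in the other 7. With DHT it was 0.478% in WT replicate 1, the library in which Lars2 was so abundant, and 0.688% to 0.893% in the other 8. Tissue had 1.08% and 1.16% in KO, 0.782% and 1.28% in HET and 1.13% and 0.795% in WT. The ratio of mitochondrial to nuclear reads, on the log2 scale and with copies added, was 4.08 in KO and 3.93 in HET without DHT replicate 1, and 1.40 to 3.08 in the other 22 libraries. The mitochondrial members also varied more between replicates than the nuclear ones. In organoids the median biological coefficient of variation, the spread between replicates beyond counting noise, was 0.537 over the mitochondrial members, 0.165 over the nuclear members tested and 0.142 over the 10360 genes with at least 5 CPM.

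**Figure D2:**
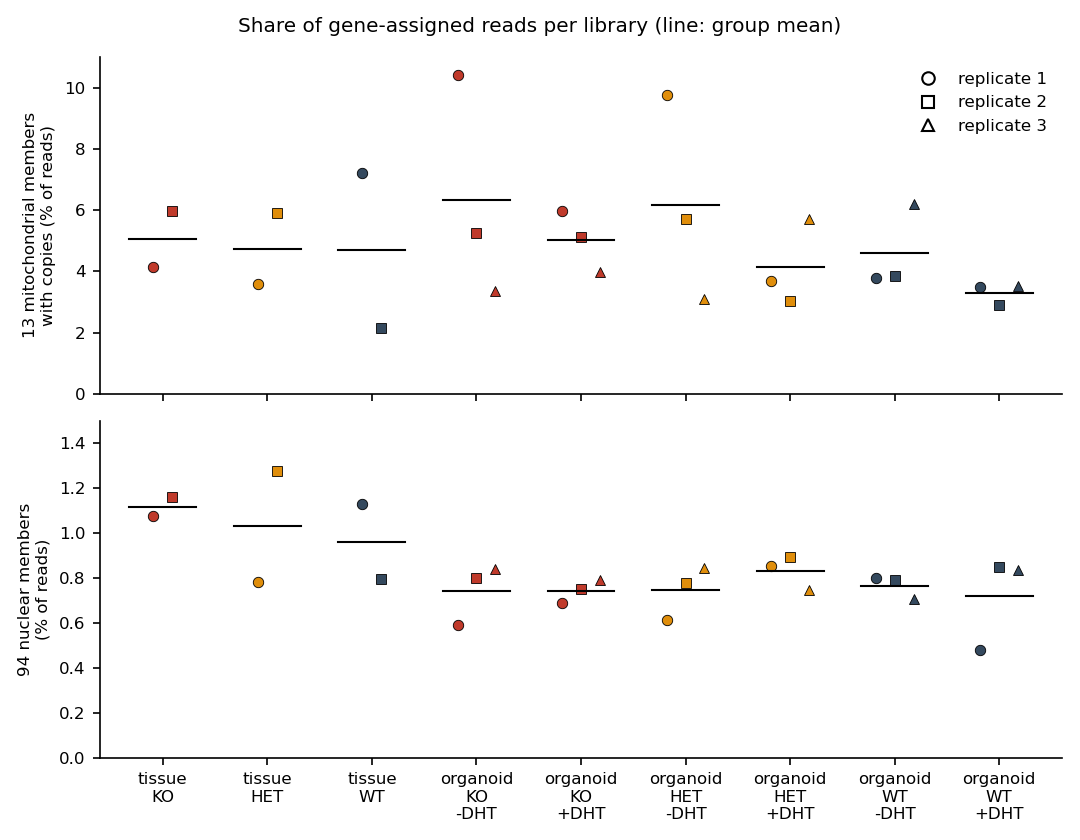
Share of gene-assigned reads (percent, vertical axes) per library for the 13 mitochondrial members with their copies (top) and the 94 nuclear members (bottom), with a symbol for each replicate and a line at the mean of each group on the horizontal axis. The highest mitochondrial shares, 10.4% and 9.75%, are single replicates of KO and HET organoids without DHT, and the lowest nuclear share, 0.478%, is a single replicate of WT organoids with DHT.

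The first question of the design is what withdrawal of DHT did within each genotype. Counts were tested gene by gene with the quasi-likelihood test of edgeR over 15415 genes of the 18 organoid libraries, and a gene was called at a Benjamini-Hochberg adjusted p under 0.05. Of the members, 89 nuclear and all 13 mitochondrial ones passed the filter on low counts; Cox4i2, Cox6a2, Cox7b2, Cox8b and Cox8c did not. No member was called in KO, HET or WT organoids or over the average of the genotypes by this test, nor by DESeq2. The share called among all genes was 0.558% in KO, 0.707% in HET, 1.30% in WT and 4.95% over the average. At an unadjusted p under 0.05 there were 0 nuclear members in KO, 6 in HET and 1 in WT, and 5 over the average together with 2 mitochondrial ones. That rule took 7.04% of all genes in KO, 8.39% in HET, 8.07% in WT and 15.4% over the average. The 3 differences between the withdrawal responses of the genotypes also gave 0 called members and 0 called genes (0.00%) with edgeR, and 0 members with DESeq2. A single member, Ndufaf7, passed an unadjusted p under 0.05 there, in the difference of KO and WT, where 2.71% of all genes did. The shares of all genes were 2.81% for the difference of HET and WT and 0.98% for that of KO and HET.

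After withdrawal the median of the mitochondrial members was above 0 in each genotype, and that of the nuclear members was near 0 or below. The median log2 change of the nuclear members was 0.03 in KO, -0.16 in HET and -0.05 in WT, beside 0.01 over all genes in WT. That of the mitochondrial members was 0.76 in KO, 0.99 in HET and 0.35 in WT. These medians rest on reads as listed, without copies, which replicate 1 of KO and of HET without DHT divided unlike the other libraries. In KO mt-Co2 had a log2 change of 1.20 as listed and 0.26 with its copies, and mt-Nd4 had 0.725 and 0.779. In HET organoids 13 of 13 mitochondrial members were above 0 and 75 of 89 nuclear members were below. Transcript length moved with this: among nuclear members the median was -0.22 for 43 genes with an effective length under 500 bases and -0.10 for 18 genes of 1000 bases or more, beside -0.12 and 0.04 over all genes, and its part was not tested. Ndufs4, an accessory subunit of complex I, had 80.7 CPM without DHT and 104 CPM with DHT in HET organoids, a log2 change of -0.36 ± 0.147 (SE, n = 3 each), which edgeR did not call (adjusted p = 0.494). Averaged over genotypes it had 76.3 CPM without DHT and 90.4 CPM with DHT (adjusted p = 0.147 in edgeR).

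In KO and HET organoids the mitochondrial median rested on 1 library each. mt-Atp6, a proton channel subunit of complex V, had with its copy 10755, 3988 and 1819 CPM in KO organoids without DHT, against 4682, 3859 and 2392 CPM with DHT. In HET organoids it had 10314, 4754 and 1602 CPM without DHT, against 2155, 1593 and 4979 CPM with DHT. In both genotypes replicate 1 without DHT stood above every library with DHT while replicates 2 and 3 lay within or below the range with DHT. The log2 change was 0.60 ± 0.679 in KO (edgeR adjusted p = 1) and 0.94 ± 0.682 in HET (adjusted p = 0.813; SE, n = 3 each). For the reads given to mt-Atp6 alone it was 1.93 ± 1.16 in KO and 2.25 ± 1.18 in HET (edgeR adjusted p = 0.908 and 0.671). Without replicate 1 without DHT the median of the mitochondrial members, as listed, was -0.27 in KO and 0.10 in HET organoids. In WT organoids it was -0.05 without replicate 3 without DHT and 0.74 without replicate 1 with DHT. The KO and HET libraries are also among the 3 with the fewest reads and transcripts, and the part of depth or RNA quality in this result was not tested.

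**Figure D3:**
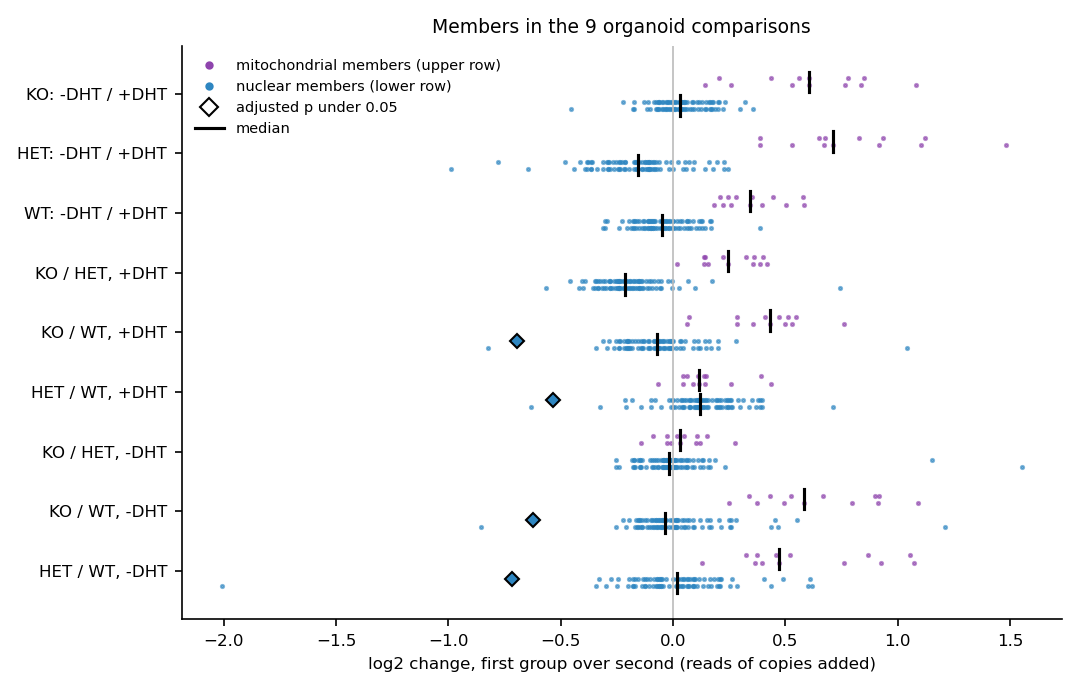
Log2 change of each member (horizontal axis, first group over second, reads of copies added) in the 9 organoid comparisons (vertical axis), with the mitochondrial members in the upper and the nuclear members in the lower row of each. Bars are medians and diamonds are members with an adjusted p under 0.05; with copies added the only one is Ndufa4l2, which is called in the 4 comparisons of KO or HET with WT organoids.

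The second question is what the genotype labels changed. Here a single gene stood out. Ndufa4l2 (chr10:127514967-127517154, plus strand, GRCm38), a paralog of Ndufa4 that hypoxia is known to induce, had 52.4, 56.7 and 55.9 CPM in KO and 54.5, 74.4 and 54.8 CPM in HET organoids with DHT, against 67.8, 107 and 91.1 CPM in WT organoids. Without DHT it had 51.8, 55.3 and 60.4 CPM in KO and 51.4, 52.1 and 53.3 CPM in HET, against 88.9, 92.6 and 77.0 CPM in WT organoids. All KO libraries lay below all WT libraries in both media, and HET libraries did so without DHT. With DHT HET replicate 2 lay above the lowest WT library. Over all genes KO lay wholly below WT in 11.2% with DHT and 8.41% without it, and HET in 10.2% without DHT.

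By edgeR, Ndufa4l2 fell by 0.69 ± 0.145 on the log2 scale in KO against WT with DHT (adjusted p = 0.00986) and by 0.53 ± 0.145 in HET against WT (adjusted p = 0.0329; SE, n = 3 each). Without DHT it fell by 0.62 ± 0.144 in KO (adjusted p = 0.0196) and by 0.72 ± 0.145 in HET (adjusted p = 0.0049). The KO and HET comparisons share the WT libraries and are not independent. Between KO and HET the log2 change was -0.16 ± 0.144 with DHT and 0.10 ± 0.144 without it (edgeR adjusted p = 0.716 and 0.996). Neither DHT (log2 change 0.03 in KO, -0.23 in HET and -0.04 in WT after withdrawal) nor the difference of the withdrawal response between HET and WT (-0.18 ± 0.204, edgeR adjusted p = 1) was called for this gene. With offsets for the effective length of the transcripts in each library, the adjusted p was 0.054 in KO and 0.0473 in HET with DHT, and 0.165 in KO and 0.082 in HET without it. Leaving out 1 library at a time gave edgeR adjusted p of 0.00139 to 0.028 for HET without DHT, which was called each time. The range was 0.00165 to 0.0699 for KO with DHT, lost without KO replicate 1 or WT replicate 2, and 0.00626 to 0.177 for HET with DHT, lost without HET replicate 1 or 3, KO replicate 3 or WT replicate 2 or 3. For KO without DHT it was 0.00632 to 0.089, lost without KO replicate 1 or 2 or WT replicate 1 or 2. That call was also lost when replicate 1 of KO and of HET without DHT were left out together (edgeR adjusted p = 0.0683).

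**Figure D4:**
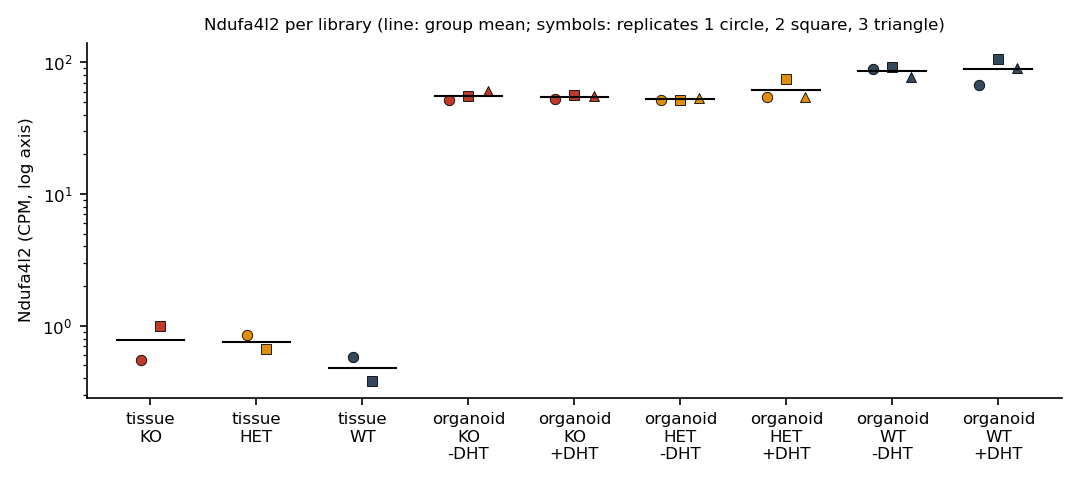
Ndufa4l2 in CPM per library (vertical log axis) by group (horizontal axis); symbols are replicates and lines are group means. KO and HET organoids lie between 51.4 and 74.4 CPM, WT organoids between 67.8 and 107 CPM and all tissue libraries at 1.00 CPM or below.

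Ndufa4l2 was the single member called in HET against WT with DHT, in KO against WT with DHT and in HET against WT without DHT. Among all genes 7.48%, 4.12% and 7.80% were called in these comparisons. DESeq2 called 3, 1 and 3 members there. In KO against WT without DHT edgeR called 2 members, Ndufa4l2 and Ndufs5, beside 4.81% of all genes. Between KO and HET no member was called with DHT (3.53% of genes) or without DHT (2.91%). At an unadjusted p under 0.05 there were 8 nuclear members with DHT and 2 without it, beside 14.1% and 11.9% of all genes, and DESeq2 called 1 in each, Ndufa10 with DHT and Cox6b2 without it.

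Ndufs5, an accessory subunit of complex I, had 19.5, 24.7 and 25.1 CPM in KO organoids without DHT, against 17.7, 16.3 and 13.1 CPM in WT organoids without DHT. These groups did not overlap, and the log2 change was 0.56 ± 0.142 (edgeR adjusted p = 0.0315; SE, n = 3 each). Every KO library was above every WT library in 8.61% of all genes. Ndufs5 shares 99.4% of its transcript sequence with BC002163, a processed pseudogene on chromosome 16, and 34.0% to 78.4% of the reads of the pair were given to Ndufs5 across libraries. With the reads of the copy added, KO organoids had 40.1, 34.1 and 32.1 CPM, against 32.3, 28.5 and 28.1 CPM in WT organoids. The groups then overlapped and the log2 change was 0.26 ± 0.143 (edgeR adjusted p = 0.45). With DHT the log2 change of Ndufs5 in KO against WT was 0.41 (edgeR adjusted p = 0.16), and against HET it was also 0.41 (adjusted p = 0.154).

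Cox6b2, an isoform of a complex IV subunit best known from testis, was low throughout. It had 1.12, 2.28 and 2.02 CPM in KO organoids without DHT, against 0.226, 0.556 and 1.00 CPM in HET and 0.851, 0.842 and 0.657 CPM in WT organoids. All KO libraries lay above all HET and WT libraries. Over all genes KO lay wholly above HET in 6.03% and above WT in 8.61% without DHT, and in 15.8% and 12.7% with DHT. The log2 change of KO against HET was 1.55 ± 0.45 and that of KO against WT 1.21, and edgeR called neither (adjusted p = 0.0875 and 0.167). With replicate 1 of KO and of HET without DHT left out together, KO against WT was called (log2 change 1.45, edgeR adjusted p = 0.0351). With DHT the values were 1.91, 1.24 and 1.72 CPM in KO, 0.877, 1.03 and 0.989 CPM in HET and 0.233, 1.17 and 0.733 CPM in WT organoids, again with KO above the rest, and the log2 change of KO against WT was 1.04 (edgeR adjusted p = 0.318).

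The remaining nuclear members differed between KO and HET by a small amount, mostly in the same direction, when DHT was present. Of the 89 tested, 82 were lower in KO organoids, with a median log2 change of -0.21, against 0.01 over all genes. The median was -0.22 in complex I (37 of 38 below 0), -0.11 in complex II (4 of 4), -0.24 in complex III (8 of 8), -0.25 in complex IV (12 of 13) and -0.22 in complex V (16 of 18). In 24 nuclear members every KO library was below every HET library, which held for 15.3% of all genes, and in 4 every KO library was above (15.8% of all genes). With 1 library left out at a time the median of the nuclear members lay between -0.26 and -0.15. Ndufa10, an accessory subunit of complex I, had 71.4, 78.1 and 76.5 CPM in KO organoids with DHT, against 84.7, 97.5 and 91.4 CPM in HET organoids with DHT. The groups did not overlap, and the log2 change was -0.28 ± 0.0908 (edgeR adjusted p = 0.126; SE, n = 3 each). Atp5c1, the gamma subunit in the central shaft of the ATP synthase, had 255, 291 and 268 CPM in KO, against 317, 344 and 330 CPM in HET organoids (log2 change -0.29, edgeR adjusted p = 0.202).

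HET organoids lay above WT organoids with DHT for 71 of 89 nuclear members, with a median log2 change of 0.12, against -0.003 over all genes. This median was 0.02 without WT replicate 1, and at most 0.19 with another library left out. KO organoids lay below WT organoids with DHT for 68, with a median of -0.08 (-0.20 to -0.02 with 1 library left out). These comparisons share libraries. Short genes moved with the members: among all genes with an effective length under 500 bases the median log2 change of KO against HET with DHT was -0.17, and among those of 1000 bases or more it was 0.03. In HET against WT with DHT the same bins gave 0.17 and -0.03 over all genes, and 0.14 and 0.06 over the nuclear members. For KO against HET the medians of the nuclear members were -0.22 for 43 genes under 500 bases and -0.11 for 18 genes of 1000 bases or more, and the part of transcript length in this pattern was not tested. Without DHT the pattern was absent from the medians, which were -0.04 in KO against WT and 0.02 in HET against WT. In KO against HET without DHT the nuclear medians were -0.01 under 500 bases, -0.03 from 500 to 1000 bases and -0.01 above. With 1 library left out the median of all nuclear members there lay between -0.11 and 0.11.

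None of the Sdh genes, the whole of complex II, was called in these comparisons. Sdha, the subunit that oxidises succinate, had 135, 149 and 146 CPM in KO, 144, 147 and 140 CPM in HET and 131, 155 and 145 CPM in WT organoids with DHT. The groups overlapped, and the log2 change of KO against WT was -0.01 ± 0.0897 (SE, n = 3 each). Sdhb, which carries the iron-sulfur clusters, ranged from 47.0 to 55.2 CPM in KO, from 53.9 to 60.3 CPM in HET and from 43.6 to 58.6 CPM in WT organoids with DHT.

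Without DHT the mitochondrial members, as listed and without copies, had a median log2 change of 0.72 in KO and 0.76 in HET against WT. In each, 13 of 13 were above 0. As for withdrawal, replicate 1 of KO and of HET carried the highest values. mt-Co2, a complex IV subunit that takes electrons from cytochrome c, had with its copy 14144, 7040 and 3731 CPM in KO and 14102, 7946 and 3319 CPM in HET, against 5042, 4646 and 8820 CPM in WT organoids without DHT. The lowest library of KO and of HET lay below all WT libraries. With DHT the median, again as listed, was 0.47 in KO and 0.14 in HET against WT (12 of 13 above 0 in each). With 1 library left out it lay between 0.22 and 0.80 in KO and between -0.32 and 0.61 in HET, below 0 without HET replicate 3 or WT replicate 2, and no mitochondrial member was called by edgeR.

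Of the genes that serve these complexes without being subunits, 41 assembly factors, 24 genes of mitochondrial transcription and RNA handling and 11 nuclear regulators were looked up in the same fits; the 8 Ndufaf genes are in the first list too. Of these, edgeR called only Cox18, Cox15 and Myc in any organoid comparison of genotypes, and none after DHT withdrawal. In HET against WT with DHT it called 2 of 41 assembly factors and 1 of the 10 nuclear regulators tested, beside 7.48% of all genes. In each other comparison of genotypes at most 1 listed gene was called, beside 2.91% to 7.80% of all genes. Cox18 is the factor which moves part of the mitochondrially encoded Cox2 protein across the inner membrane. Cox18 had 6.27, 5.99 and 6.45 CPM in KO and 10.2, 10.6 and 10.8 CPM in HET, against 16.3, 13.4 and 13.3 CPM in WT organoids with DHT. Without DHT it had 5.79, 6.35 and 6.85 CPM in KO and 9.06, 9.87 and 11.3 CPM in HET, against 12.1, 14.6 and 12.0 CPM in WT organoids. In both media the genotypes formed 3 groups that did not overlap. For single pairs of genotypes the share of all genes without overlap was 24% to 31.1% with DHT and 12.1% to 20.3% without it.

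Cox18 fell by 1.20 ± 0.124 on the log2 scale in KO against WT with DHT (edgeR adjusted p = 1.97e-05) and by 1.02 ± 0.123 without it (adjusted p = 8.07e-05; SE, n = 3 each). Against HET it fell by 0.76 ± 0.122 in KO with DHT (edgeR adjusted p = 0.0022) and by 0.67 ± 0.123 without it (adjusted p = 0.00605). HET against WT gave -0.44 ± 0.122 with DHT (edgeR adjusted p = 0.0366) and -0.35 ± 0.121 without it, which was not called (adjusted p = 0.0983). In HET against WT with DHT Cox15, needed to make the heme of complex IV, fell by 0.34 ± 0.0900 (adjusted p = 0.0274) and the transcription factor Myc by 0.38 ± 0.0936 (adjusted p = 0.0212). Cox18 was singled out after its values were seen.

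In tissue the genotype comparisons called no member, and no gene at all (0.00%), by edgeR; no member passed an unadjusted p under 0.05, which 1.92% of all genes did in KO against WT, 2.72% in HET against WT and 0.579% in KO against HET, and DESeq2 called 0 members. With 2 libraries a genotype these comparisons had little power: on simulated counts for HET against WT tissue, 0% of 100 genes changed by a log2 change of 2 were recovered. The nuclear members had a median log2 change of 0.00 in KO against WT, -0.14 in HET against WT and 0.16 in KO against HET. Without WT replicate 2 and HET replicate 1, the libraries with seminal vesicle transcripts, the medians were -0.03, 0.16 and -0.18, so that both comparisons with HET turned their sign. edgeR again called no member, while it called 82, 27 and 60 genes in a fit that assumes the lone HET and WT libraries to vary like the KO pair. At an unadjusted p under 0.05 there were then 3, 5 and 0 members, beside 5.0%, 4.0% and 3.76% of all genes. Ndufa4l2 was low in all 6 libraries, with 0.553 and 1.00 CPM in KO, 0.851 and 0.668 CPM in HET and 0.581 and 0.378 CPM in WT tissue. Cox18 ranged from 8.2 to 10.6 CPM over the 6 libraries.

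The last comparison sets tissue against organoids with DHT, averaged over the genotypes, in a fit over 24 libraries and 17897 genes. These materials differ in most genes, and 75.3% were called by edgeR, 41.6% higher and 33.7% lower in tissue. In 44.6% of genes the tissue libraries did not overlap with the organoid libraries with DHT, 23.7% higher and 20.9% lower in tissue. Of the 91 nuclear members tested, 50 were higher in tissue and 12 lower, with a median log2 change of 0.33, against 0.18 over all genes. Among those tested, Cox4i2 and Cox8b did not pass the filter in the organoid libraries alone, nor the second Atp5o entry in the tissue libraries alone. Their direction followed from the filter, so they carry no weight in these counts. Of the 13 mitochondrial members 3 were higher and 2 lower, with a median of 0.00. Without the tissue libraries WT replicate 2 and HET replicate 1 there were 53 nuclear members higher and 12 lower and 3 mitochondrial members higher and 1 lower, and the mitochondrial median was 0.30, against 0.13 over all genes. Markers of other cell types differed too. Over the 6 smooth muscle markers the summed level was 331 to 4900 CPM in tissue and 0.814 to 7.30 CPM in organoids with DHT. The fibroblast markers summed to 219 to 438 CPM in tissue and 9.46 to 40.1 CPM in organoids, and the endothelial markers to 40.9 to 48.9 CPM and 2.54 to 12.4 CPM. The organoid sums were nearly all Dcn, with 8.95 to 39.4 CPM, and nearly all Pecam1, with 2.52 to 12.4 CPM. The adipocyte markers summed to 3.49 to 47.9 CPM in tissue and 0.400 to 2.09 CPM in organoids. The leukocyte markers summed to 9.98 to 42.3 CPM in tissue and 46.4 to 79.4 CPM in organoids, but the organoid sum was nearly all Cd68. Cd68 had 4.65 to 11.3 CPM in tissue and 46.1 to 79.1 CPM in organoids, while Ptprc, Cd3e and Cd79a were higher in tissue. Ptprc had 3.74 to 26.0 CPM in tissue and 0.0444 to 0.465 CPM in organoids. The brown adipocyte markers summed to 0 to 0.696 CPM in tissue and 1.40 to 3.80 CPM in organoids, nearly all of it Cidea. Luminal epithelial markers summed to 5559 to 15657 CPM in tissue and 5165 to 6107 CPM in organoids, but they differed among themselves. Pbsn had 27.1 to 11864 CPM in tissue and at most 0.0487 CPM in organoids. Epcam went the other way, with 578 to 1183 CPM in tissue and 1384 to 1758 CPM in organoids. The remaining luminal markers overlapped between the materials. Basal markers summed to 151 to 1645 CPM in tissue and 2763 to 3862 CPM in organoids. The part of cell composition in the differences below was not tested.

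In complex I, Ndufa1 and Ndufb7, both accessory subunits, rose most. Ndufa1, needed to build the membrane arm, had 79.0 and 109 CPM in KO, 53.7 and 109 CPM in HET and 97.4 and 142 CPM in WT tissue, against 19.6 to 27.4 CPM in the 9 organoid libraries with DHT. Every tissue library was above every organoid library, and the log2 change was 2.06 ± 0.128 (edgeR adjusted p = 5.12e-11; SE over 6 and 9 libraries). Ndufb7 averaged 54.2 CPM in tissue and 19.5 CPM in organoids (log2 change 1.47 ± 0.233, edgeR adjusted p = 1.47e-05). In complex I as a whole 29 of 38 members lay above 0, with a median of 0.35. Ndufs1, a core subunit that carries iron-sulfur clusters, fell by 0.36 ± 0.0855 (edgeR adjusted p = 8.23e-04).

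Complex II rose by little. Sdhd, a membrane anchor, had 90.3 and 90.3 CPM in KO, 77.6 and 92.4 CPM in HET and 101 and 86.9 CPM in WT tissue, against 53.1 to 71.3 CPM in organoids with DHT, without overlap (log2 change 0.46 ± 0.113, edgeR adjusted p = 0.00129). Sdhb rose by 0.33 ± 0.114 (adjusted p = 0.0134) and Sdha by 0.25 ± 0.0802 (adjusted p = 0.00864), while Sdhc had a log2 change of 0.16 ± 0.15 that edgeR did not call (adjusted p = 0.329). Complex III was divided. Uqcr11, a small accessory subunit, averaged 104 CPM in tissue and 32.8 CPM in organoids (log2 change 1.66 ± 0.278, adjusted p = 2.69e-05), and Uqcrc2, a large core subunit, averaged 122 CPM in tissue and 186 CPM in organoids (log2 change -0.61 ± 0.0757, adjusted p = 7.12e-07). Neither gene's libraries overlapped between the materials.

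In complex V, Atp5g1, 1 of 3 genes for the same membrane ring protein, had 60.1 and 106 CPM in KO, 42.3 and 123 CPM in HET and 60.6 and 68.3 CPM in WT tissue, against 18.4 to 28.1 CPM in organoids with DHT. The materials did not overlap (log2 change 1.71 ± 0.271, edgeR adjusted p = 1.47e-05). Its sister gene Atp5g3 rose by 0.68 ± 0.169 (adjusted p = 0.00138) and Atp5g2 had a log2 change of -0.18 that was not called (edgeR adjusted p = 0.405). Over all libraries Atp5g3 had 286 TPM, Atp5g1 103 TPM and Atp5g2 15.3 TPM as listed. Atp5g2 is identical over 645 bases to Gm10175, a transcribed pseudogene on chromosome 7, and with its reads held 315 TPM, so the order of Atp5g2 and Atp5g3 depends on how these reads are divided; its log2 change was then -0.17 (edgeR adjusted p = 0.45). Atp5c1 averaged 191 CPM in tissue and 287 CPM in organoids and fell by 0.58 ± 0.0825 (edgeR adjusted p = 3.64e-06), again without overlap. Among the assembly factors Ndufaf7, a methyltransferase that modifies complex I, rose by 1.39 ± 0.109 (adjusted p = 1.26e-09) and Ndufaf6 fell by 1.09 ± 0.199 (adjusted p = 6.98e-05).

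As in the organoids, length ran along with these changes. The median log2 change of the nuclear members was 0.50 over 44 genes with an effective length under 500 bases, 0.33 over 29 genes of 500 to 1000 bases and -0.11 over 18 genes of 1000 bases or more. Over all genes it was -0.11, 0.20 and 0.18 in the same bins, so the order among the members was not that of genes at large.

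The promoters of Uqcr11, Ndufa1 and Sdhb of complex II are shown because nuclear respiratory genes are known for shared motifs near their start and these windows hold them. Uqcr11 and Ndufa1 were among the 4 called nuclear members at 5 CPM or more that rose most in tissue. Of the 94 nuclear members, 76 had a promoter in the RefSeq table (GRCm38.p6), a window of 250 bases before to 50 after the gene's start. The motif of NRF1, GCATGCGC, stood on either strand in 12 of them (15.8%), against 3.05% of all 27025 promoters. The ETS motif read by GABPA, CCGGAAG, stood in 18 (23.7%, against 9.93%), and the YY1 motif ATGGCGG in 12 (15.8%, against 4.69%). In the sequences below, capitals mark these motifs. The first, Uqcr11, lies at chr10:80406772-80407071 on the minus strand and holds an ETS and an NRF1 motif; Ndufa1, at chrX:37191189-37191488 on the minus strand, holds the YY1 motif on its reverse strand; and Sdhb, at chr4:140961021-140961320 on the plus strand, holds an NRF1 and an ETS motif like Uqcr11.
Uqcr11: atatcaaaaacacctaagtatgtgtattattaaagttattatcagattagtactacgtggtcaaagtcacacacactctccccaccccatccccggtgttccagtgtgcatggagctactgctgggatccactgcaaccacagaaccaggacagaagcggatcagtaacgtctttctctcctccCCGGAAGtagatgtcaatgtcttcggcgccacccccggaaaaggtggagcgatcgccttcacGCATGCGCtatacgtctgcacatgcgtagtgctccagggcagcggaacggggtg
Ndufa1: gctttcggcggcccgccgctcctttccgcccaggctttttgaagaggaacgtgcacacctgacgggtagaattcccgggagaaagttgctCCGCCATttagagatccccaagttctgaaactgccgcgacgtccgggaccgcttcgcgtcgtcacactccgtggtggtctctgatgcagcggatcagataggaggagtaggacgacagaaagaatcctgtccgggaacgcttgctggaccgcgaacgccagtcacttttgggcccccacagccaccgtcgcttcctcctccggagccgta
Sdhb: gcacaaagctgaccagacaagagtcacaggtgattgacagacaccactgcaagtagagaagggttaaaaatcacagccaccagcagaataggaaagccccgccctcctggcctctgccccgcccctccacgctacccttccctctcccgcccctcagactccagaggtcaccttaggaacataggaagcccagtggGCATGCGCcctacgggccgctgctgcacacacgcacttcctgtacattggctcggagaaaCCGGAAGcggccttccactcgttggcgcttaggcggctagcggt

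Uqcr11 and Sdhb thus hold the same pair of motifs, with log2 changes of 1.66 and 0.33 in tissue against organoids. The promoters of Atp5g1, Atp5c1 and Cox7a2l held none of these letters in the window. A match is a description of the sequence and does not show a bound site.

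Complex IV has tissue-specific isoforms, and several of these separated the materials. Cox4i2, a lung and hypoxia isoform of Cox4i1, had 233 reads over the 6 tissue libraries, with 0.292 to 1.21 CPM in each, while 2 reads were counted in 1 of the 9 organoid libraries with DHT. Cox8b, the muscle isoform of Cox8a, had 75 reads, with 0.107 to 0.48 CPM in every tissue library, and 0 reads in the 9 organoid libraries with DHT, where 3 of 355268208 reads, the limit that a count of 0 allows, would be 0.00844 CPM. Cox7a1, a muscle isoform of Cox7a2, had 2.46 and 2.38 CPM in KO, 1.07 and 2.65 CPM in HET and 1.79 and 0.983 CPM in WT tissue, against 0.311 to 0.782 CPM in organoids with DHT. The groups did not overlap (log2 change 1.80 ± 0.381, edgeR adjusted p = 3.13e-04). Cox6a2, the muscle isoform of Cox6a1, was near 0 in both materials and not higher in tissue. It had 5 reads in 3 of the 6 tissue libraries and 16 reads in 5 of the 9 organoid libraries with DHT. The common isoforms moved less: Cox4i1 rose by 0.51 ± 0.153 (adjusted p = 0.00609), Cox8a by 0.72 ± 0.219 (adjusted p = 0.00589) and Cox6a1 by 0.61 ± 0.155 (adjusted p = 0.00166), and Cox7a2 had a log2 change of 0.04 (edgeR adjusted p = 0.82). Per length Cox4i1 was far above its isoform, with 703 TPM over the 24 libraries, against 0.598 TPM for Cox4i2. Skeletal muscle markers summed to 28.0 to 374 CPM in tissue and 5.58 to 19.8 CPM in organoids with DHT, but the markers differed among themselves. Acta1 made up most of the tissue sum, with 17.2 to 319 CPM against 0.349 to 3.02 CPM in organoids, and Tnnc2 and Ckm were higher in tissue too. Mb made up most of the organoid sum, with 3.96 to 16.9 CPM against 2.91 to 6.88 CPM in tissue. Myh1, Myh4 and Pvalb were at or near 0 in both. The part of skeletal and smooth muscle cells in the isoform differences was not tested. Cox7a2l, which helps to join complexes III and IV, was 171 CPM in tissue and 236 CPM in organoids (log2 change -0.50 ± 0.126, edgeR adjusted p = 0.0015), with overlap because WT tissue replicate 2 had 297 CPM. Cox8c, a testis isoform, had 0 reads in all libraries.

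Ndufa4l2 showed the largest difference of any member with reads in every library. It averaged 0.672 CPM in tissue and 68.2 CPM in organoids with DHT, and it fell by 6.65 ± 0.171 on the log2 scale (edgeR adjusted p = 3.21e-16). Its level per length was 1.68 TPM in tissue (range 0.595 to 2.99) and 168 TPM in organoids (range 125 to 250). Ndufa4 had 623 TPM in tissue and 445 TPM in organoids and thus exceeded its paralog in both.

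**Figure D5:**
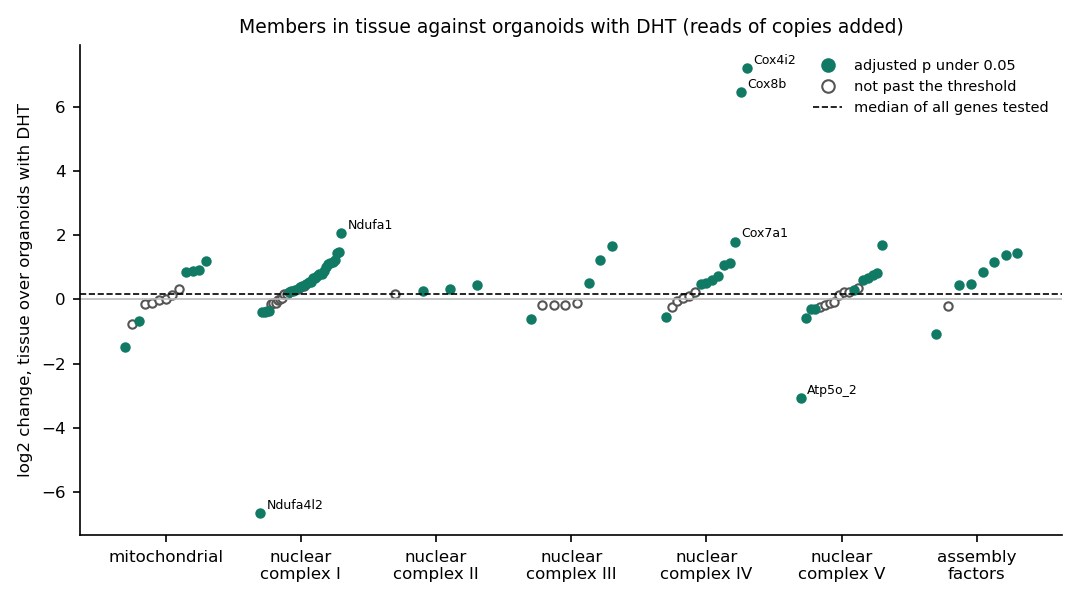
Log2 change of each member between tissue and organoids with DHT (vertical axis, reads of copies added), ordered within the mitochondrial members, each nuclear complex and the assembly factors (horizontal axis). Filled points have an adjusted p under 0.05 and the dashed line is the median of all genes; Ndufa1 is highest in complex I at 2.06, Ndufa4l2 lies at -6.65, and Cox4i2 and Cox8b are near 0 reads in organoids, so their heights depend on the small count that the model adds.

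The mitochondrial members differed between tissue and organoids in their proportions. Of the reads of all 13 with copies, mt-Cytb took 13.6% to 15.1% in the 6 tissue libraries and 4.82% to 6.69% in the 9 organoid libraries with DHT. mt-Nd4 of complex I took 7.63% to 8.54% in tissue and 3.26% to 4.55% in organoids. mt-Co1 took 28.4% to 34.0% in tissue and 42.8% to 50.6% in organoids. None of these ranges overlapped, although the mitochondrial total itself was 7.22% and 2.16% of reads in the WT tissue libraries.

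mt-Nd6, the only protein-coding gene transcribed from the other strand of the mitochondrial genome, took 0.237% to 0.381% in tissue and 0.588% to 0.946% in organoids with DHT. mt-Co2 and mt-Co3 overlapped between the materials, with 11.6% to 15.3% in tissue and 13.2% to 14.7% in organoids for mt-Co2. Without DHT the organoid range was 5.30% to 6.47% for mt-Cytb and 35.6% to 53.3% for mt-Co1, so that mt-Cytb lay apart from tissue in both media.

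Tested as levels, mt-Cytb (chrM:14145-15288) had 4695 and 6785 CPM in KO, 4516 and 6509 CPM in HET and 8238 and 3794 CPM in WT tissue, against 1842 to 3522 CPM in organoids with DHT. Every tissue library was above every organoid library (log2 change 1.21 ± 0.295, edgeR adjusted p = 0.00115), and no near-identical copy of mt-Cytb was found. mt-Nd6 (chrM:13552-14070, minus strand) had 129 and 135 CPM in KO, 95.4 and 113 CPM in HET and 175 and 83.0 CPM in WT tissue, against 199 to 497 CPM in organoids. It too did not overlap and fell by 1.49 ± 0.387 (adjusted p = 0.00189). mt-Nd4 rose by 0.92 ± 0.387 (adjusted p = 0.0388) and mt-Nd4l by 0.84 ± 0.299 (adjusted p = 0.0162), and mt-Co1 fell by 0.81 ± 0.266 (adjusted p = 0.0107). With the reads of copies added mt-Co1 fell by 0.66 (edgeR adjusted p = 0.0238), and mt-Nd3, with a log2 change of 0.89 ± 0.317, was called as well (adjusted p = 0.0167). mt-Nd4l and mt-Nd4 overlap in the genome, as do mt-Atp8 and mt-Atp6 and the ends of mt-Nd5 and mt-Nd6, and the sources used here do not give whether the counting used the strand of a read, so reads in these overlaps cannot be told apart.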

How the data were processed

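The authors deposited, for each of the 24 libraries, a table of 116945 transcripts with estimated counts and TPM values from Salmon 0.13.1, per the submitters' processing notes. Those notes name hg38, but the deposited transcript IDs are mouse Ensembl IDs; the sources used here give neither the annotation the authors used nor whether reads were counted by strand.

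Using GENCODE mouse release M21 (GRCm38), the estimated counts of each gene's transcripts were added and rounded to whole numbers. Deposited TPM values were summed per gene and used to compare levels between genes, and CPM were put on 1 TMM scale over all libraries. In each library 1000 transcripts, with 0.241% to 0.348% of the reads, had no gene in that annotation and were left out. Genes were filtered by group with filterByExpr and tested with the quasi-likelihood F-test of edgeR 4.0.16 (R 4.3.3, limma 3.58.1), with Benjamini-Hochberg adjustment over all genes tested and a threshold of 0.05. The 18 organoid libraries, the 6 tissue libraries and all 24 libraries were fitted apart, with 12, 3 and 15 residual degrees of freedom and common coefficients of variation of 0.214, 0.501 and 0.312. SE is the log2 change divided by the square root of the F statistic. DESeq2 1.42.0 was an alternative. Near-identical copies were found with BLAST+ 2.17.0 between annotated transcripts, at 95% identity or more over at least 80% of the shorter one. Intervals and limits from counts cover counting error only.

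On simulated counts with 100 genes at each size, the test recovered 81% and 98% of genes with a log2 change of 1 and 2 for DHT withdrawal in WT organoids, and 90% and 98% for tissue against organoids. The changed genes were drawn from all genes of at least 5 CPM, whose median coefficient of variation was 0.142 in organoids. These rates do not hold for the mitochondrial members, whose median was 0.537 and which were not simulated apart. Same-numbered replicates deviated together, with every correlation above 0.1, in 5 of 15 pairs of organoid groups, among them KO without and with DHT (0.181 to 0.677) and KO and HET without DHT (0.51 to 0.937). Over all pairs of organoid groups the correlation ranged from -0.861 to 0.937 (median 0.104), and over tissue groups from -0.152 to 0.549, so the numbers were not taken to pair the samples of a fit.

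The members and lists were chosen with earlier results of these data known. Named were the mitochondrial members, up to 4 called nuclear members with the largest rise and 4 with the largest fall at 5 CPM or more in each comparison, paralog pairs with a tissue isoform, the highest and lowest member of each complex and the Sdh genes. Ndufs4, Ndufa10, Ndufs1, Ndufaf6, Ndufaf7, Cox15, Cox18 and Myc, and Atp5c1 between KO and HET, were named after their values were seen. Alternatives changed the normalization, the filter, the tool, the length offsets, the replicate block, the groups in the fit and the libraries. Mitochondrial ribosomal and transfer RNAs were not analysed here, and 1 member is not reported by name. Promoters and their coordinates are from RefSeq.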

Additional observations from a re-analysis of the deposited data

How the results depend on the processing

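Counts of members called by edgeR in the organoids were small and moved by 1 to 4 genes. With DESeq2 there were 3 in HET against WT with DHT and 3 without it, where edgeR had 1 each, and 1 in KO against HET with DHT and 1 without it, where edgeR had 0. With no filter on low counts there were 0 in HET against WT with DHT (Ndufa4l2 adjusted p = 0.0577) and 1 in KO against WT without DHT (Ndufs5 adjusted p = 0.0682). Offsets for effective length left 0 in KO against WT with DHT, 0 in HET against WT without DHT and 1, Ndufs5, in KO against WT without DHT. Added copies also left 1 there, Ndufa4l2. A fit restricted to the groups compared gave 0 in HET against WT with DHT, 2 in KO against WT with DHT (Ndufa4l2 and mt-Co2), 2 in KO against HET with DHT (Ndufs3 and Ndufs8) and 0 in KO against WT without DHT.

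The replicate block gave 2 members in HET against WT without DHT, Ndufa4l2 and Cox7a2l (log2 change -0.38, adjusted p = 0.0209), and 3 in KO against WT without DHT, where Cox7a2l was added (-0.36, adjusted p = 0.0417). Of the reads of Cox7a2l and its copy Gm6969, 67.2% and 65.6% were given to Cox7a2l in KO and HET without DHT replicate 1, against 82.0% to 93.1% in the other 22 libraries. The block left 0 members for withdrawal in KO and for KO against HET without DHT, the comparisons whose same-numbered replicates deviated together, and moved no other count of members by more than 1.5 times. Over all groups the numbers were not shown to pair the samples. Leaving out 1 library at a time gave 0 to 1 member in HET against WT with DHT, 0 to 1 in KO against WT with DHT, 0 to 1 in KO against HET without DHT (1 without HET replicate 3, Cox6b2) and 57 to 72 in tissue against organoids. It gave 1 to 5 in HET against WT without DHT (5 without HET replicate 3, 2 without KO replicate 1) and 0 to 2 in KO against WT without DHT (0 without KO replicate 2 or WT replicate 2), where the adjusted p of Ndufs5 ranged from 0.0138 to 0.138.

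Without the 3 smallest organoid libraries, an alternative chosen after seeing the data, there was 1 member in DHT withdrawal in WT (Ndufs6, log2 change -0.44, adjusted p = 0.0418), 2 in KO against HET with DHT (Cox5a and Ndufs3) and 1 without DHT (Cox6b2). Also chosen afterwards, tissue against organoids gave 43 members within KO alone, 32 within HET alone and 37 within WT alone, against 67 over the average; Atp5c1 and Cox7a2l were not called within WT (adjusted p = 0.0668 and 0.709). The cause of these shifts was not tested, but fewer libraries enter each such value. No alternative reversed the direction of a call among the nuclear members named for the largest rise or fall in a comparison. The directions of the other named genes were not followed through the alternatives.

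Counts over all genes moved too. For DHT withdrawal DESeq2 called 281 genes in KO, 297 in HET, 397 in WT and 1163 over the average, against 86, 109, 200 and 763 with edgeR. For KO it called 989 against WT and 997 against HET with DHT, and 1165 and 798 without it, where edgeR called 635, 544, 742 and 448. The restricted fits called 12 genes in KO, 0 in HET and 94 in WT for withdrawal, 1234 in KO against HET with DHT, and 201 in KO against WT, 27 in KO against HET and 389 in HET against WT without DHT. Of the last, 68.6% were higher, against 57.9% of 1203 in the shared fit. The block called 167 for withdrawal in HET, length offsets called 273 in KO against HET without DHT, and without the 3 smallest libraries 332 were called for withdrawal in WT and 1048 in KO against HET with DHT. Depth limits the WT library with 11965815 reads, and the tissue comparisons have 2 libraries a group.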
